A study of Mus musculus with 10 samples.

Results

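The Dusp phosphatases and Nr4a receptors are 10 genes chosen by symbol, 7 of them inducible dual specificity phosphatases (*Dusp1*, *Dusp2*, *Dusp4*, *Dusp5*, *Dusp6*, *Dusp8* and *Dusp10*) and 3 of them orphan nuclear receptors (*Nr4a1*, *Nr4a2* and *Nr4a3*). All 10 were found among the 55453 gene symbols of the count table, of which 28011 had a count and 14614 passed a filter on low counts. The filter kept 9 of the 10 genes and left out *Dusp2*. The libraries came from whole aortae of male C57BL/6 mice, cleared of the surrounding fat, and each held the RNA of 1 mouse. Young mice were 14.5 weeks old and old mice 92.5 weeks old, with 5 mice in each group, and their labels name no treatment and no altered gene. The comparison asked which of these genes differ in level between young and old aortae. Between 19640401 and 22886153 reads per library were counted on genes. Levels of a gene are given as normalised counts, which are the deposited counts divided by a size factor of each library, with the mean ± SD over 5 mice.

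Mitogen-activated protein (MAP) kinases pass growth factor, stretch and stress signals from the cell surface to the nucleus, and dual specificity phosphatases switch them off by removing the phosphates of the activation loop. Many of these phosphatases are themselves transcribed on MAP kinase activity and so form a feedback loop, and they differ in their target, as some prefer ERK and others JNK and p38. Nr4a receptors are immediate early transcription factors that act without a known ligand and are controlled mainly through their own transcription, and in arteries they are induced by growth factors, inflammatory signals and cAMP.

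The tissue label was checked against marker genes. The smooth muscle actin gene *Acta2* had a mean of 390587 normalised counts in young and 348817 in old aortae, the highest of the 6 smooth muscle markers. Some libraries stood apart in ways that touch the results below. Old replicate 2 had 11% of its counts on genes of the mitochondrial genome, against 5.19 to 6.51% in the other old and 4.50 to 6.22% in the young aortae. Young replicate 1 had the highest level of its group in 5 of the 10 genes (*Dusp2*, *Dusp4*, *Dusp5*, *Nr4a1* and *Nr4a2*) and a summed level of adipocyte markers of 24188 normalised counts, against 6266 to 12315 in the other young aortae. Old replicate 3 had the lowest level of its group in 6 of the 10 genes (*Dusp1*, *Dusp8*, *Dusp10*, *Nr4a1*, *Nr4a2* and *Nr4a3*). The part of these differences in the results was not tested.

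Of the 9 genes tested, *Dusp8* and *Dusp10* fell and *Dusp6* rose in old aortae, each at an adjusted p below 0.05 in edgeR's quasi-likelihood test. Over all 14614 tested genes, 1676 passed this threshold (11.5%), with 729 lower (4.99%) and 947 higher (6.48%) in old aortae. When 1 mouse was left out, 474 to 1139 genes were called lower and 658 to 1228 higher. Upper-quartile factors gave 616 lower and 1076 higher, and the replicate number as a block gave 467 lower and 794 higher. The levels of the 5 old mice lay wholly above or wholly below those of the 5 young mice in the same 3 genes of the 9, and in 1450 of all tested genes (9.92%). The median log2 fold change was -0.25 over the 9 genes and 0.00 over all tested genes, with 7 of the 9 genes below 0. *Dusp10* was the only one of the 10 genes to pass the threshold without old replicate 2, the library with the high mitochondrial share, and likewise without young replicate 2, 3 or 4 or old replicate 1, each left out singly. Without old replicate 2, 1541 genes were called in all and the log2 fold change of *Dusp8* was -0.97, against -0.999 with all mice. Without young replicate 1, *Dusp4*, *Dusp6*, *Dusp8*, *Dusp10* and *Nr4a3* passed the threshold, with 2367 genes called. In whole tissue, fewer cells of a type and less RNA per cell cannot be told apart.

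**Figure D1:**
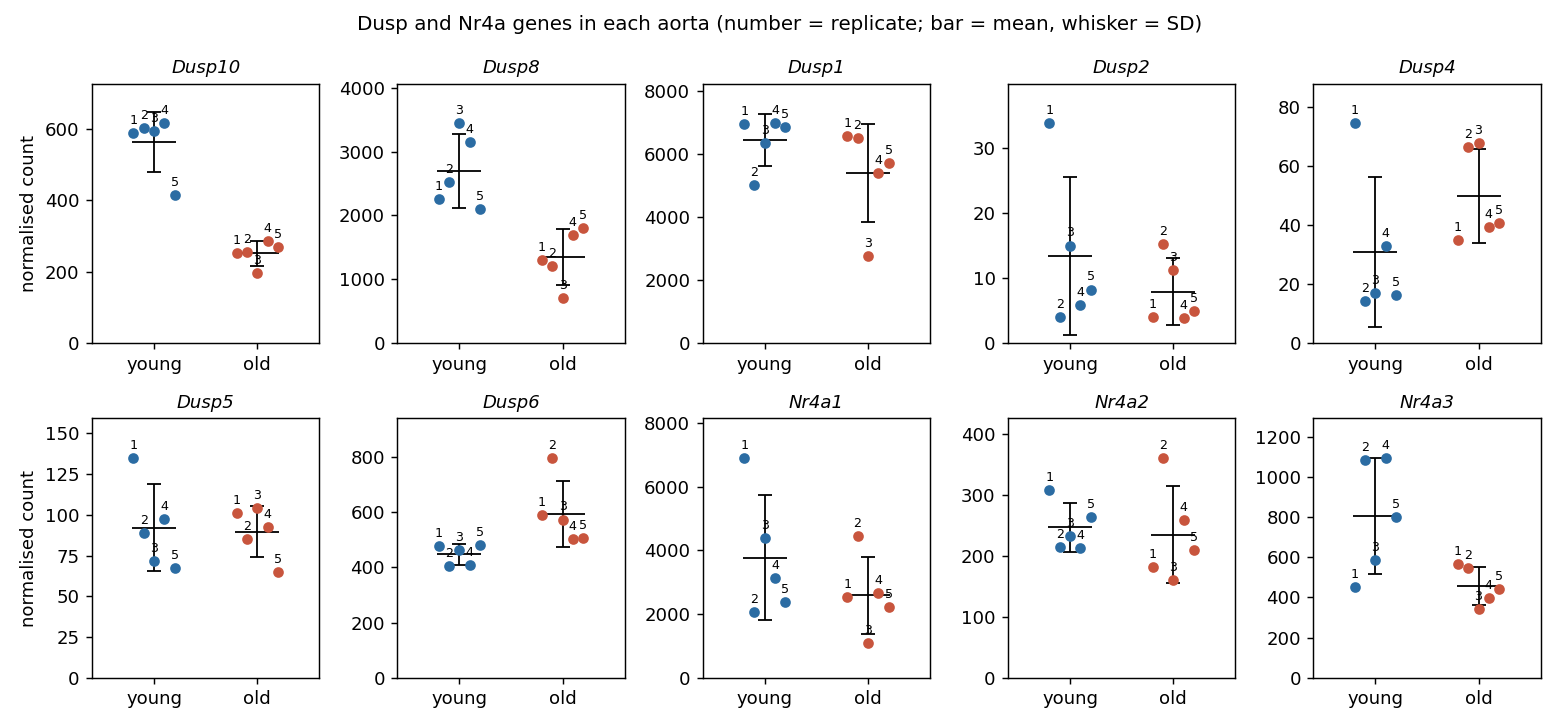
Normalised count (vertical axis, starting at 0) of each of the 10 genes in 5 young and 5 old aortae. Points are mice with their replicate number, the horizontal bar is the group mean and the whiskers its SD. All old aortae lie below all young ones in *Dusp10* and *Dusp8* and above them in *Dusp6*, and the groups overlap in the other 7 genes.

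Levels between genes were compared as normalised counts per kb of exonic length. *Dusp1* had the highest level per kb in young aortae (1945 ± 250, n = 5), and *Nr4a1* came next (1074 ± 560), with ranges that overlapped. *Dusp8* was at the third place with 554 ± 119 per kb, its range overlapping that of *Nr4a1*, but lying wholly above that of *Dusp10* (185 ± 27.3). *Dusp10*, *Dusp6* (143 ± 12.1), *Nr4a3* (134 ± 48.3) and *Nr4a2* (60.8 ± 9.93) followed, each with a range over the 5 young mice that overlapped that of the next. *Dusp5* had 37.2 ± 10.9 per kb in young aortae, and *Dusp4* (11.3 ± 9.31) and *Dusp2* (6.66 ± 6.06) had the lowest levels. The lowest young aorta in *Dusp5* (27.3 per kb) was only just above the highest in *Dusp4* (27.2), and the young ranges of *Dusp4* and *Dusp2* overlapped. In old aortae the order was the same except that *Dusp6* (190 ± 38.4 per kb) stood above *Dusp10* (82.6 ± 11.3), with ranges that did not overlap. The ranges of *Dusp8* (276 ± 89.5 per kb) and *Dusp6* overlapped in old aortae.

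**Figure D2:**
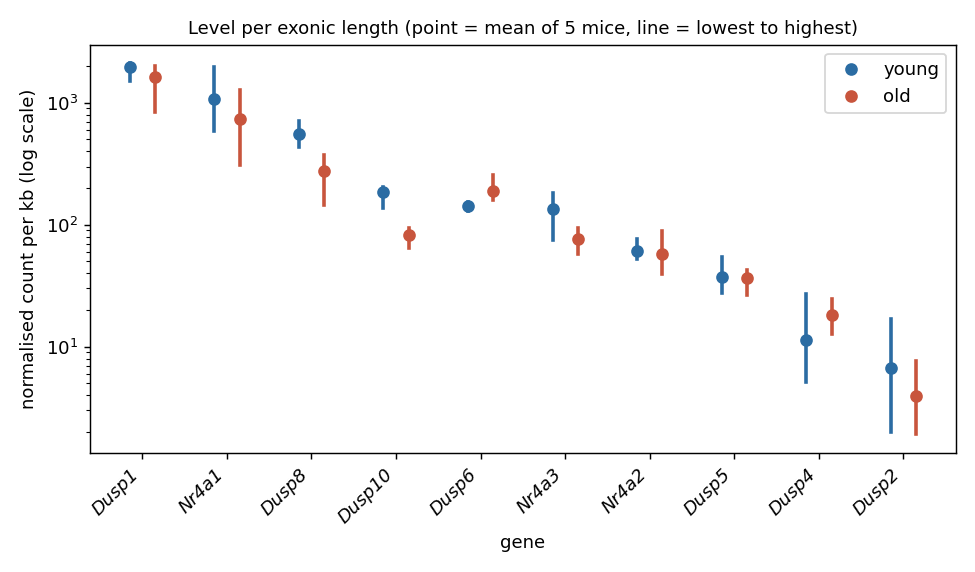
Normalised count per kb of exonic length (vertical axis, log scale) of the 10 genes, ordered by their level in young aortae. Points are means of 5 mice and lines run from the lowest to the highest mouse. *Dusp10* and *Dusp6* change places between young and old aortae.

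Promoters are shown for the 3 genes that differed between the groups, for *Dusp1* as the gene with the highest level per kb, and for *Nr4a1* and *Nr4a3*, to set the cAMP response elements of these genes side by side. The sequences are RefSeq's on GRCm38.p6, 300 bases each from 250 before to 50 after the annotated start, and were matched by symbol for 9 of the 10 genes, all but *Dusp4*. The window of *Dusp10* is chr1:184034131-184034430 (plus strand), that of *Dusp8* is chr7:142095235-142095534 (minus strand) and that of *Dusp6* is chr10:99262981-99263280 (plus strand). *Dusp1* was read at chr17:26508423-26508722 (minus strand), *Nr4a1* at chr15:101266596-101266895 (plus strand) and *Nr4a3* at chr4:48045055-48045354 (plus strand). Each is written 5′ to 3′ on the strand of its gene, and capitals mark the cAMP response element TGACGTCA and its shorter core TGACG, read on both strands, so that the core also appears as CGTCA. Each full element holds the core on both strands and so counts as 2 places of the core. The windows of *Dusp10*, *Dusp8*, *Dusp1* and *Nr4a1* lie inside the span that GENCODE gives the gene, whose outermost annotated start is farther upstream. For *Nr4a3* the GENCODE start (48045153) lies inside the window, upstream of the RefSeq start from which positions are counted.
Dusp10: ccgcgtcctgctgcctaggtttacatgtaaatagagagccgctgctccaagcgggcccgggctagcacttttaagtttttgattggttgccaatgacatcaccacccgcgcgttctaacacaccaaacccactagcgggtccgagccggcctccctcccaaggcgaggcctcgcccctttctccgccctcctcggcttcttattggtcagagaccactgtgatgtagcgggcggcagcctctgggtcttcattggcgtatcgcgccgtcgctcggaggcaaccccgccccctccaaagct
Dusp8: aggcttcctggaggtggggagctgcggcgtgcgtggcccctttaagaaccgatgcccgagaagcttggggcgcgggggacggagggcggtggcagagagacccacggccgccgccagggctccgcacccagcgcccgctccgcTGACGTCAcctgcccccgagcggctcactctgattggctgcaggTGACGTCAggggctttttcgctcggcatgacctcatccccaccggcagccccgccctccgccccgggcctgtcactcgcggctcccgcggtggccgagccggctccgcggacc
Dusp6: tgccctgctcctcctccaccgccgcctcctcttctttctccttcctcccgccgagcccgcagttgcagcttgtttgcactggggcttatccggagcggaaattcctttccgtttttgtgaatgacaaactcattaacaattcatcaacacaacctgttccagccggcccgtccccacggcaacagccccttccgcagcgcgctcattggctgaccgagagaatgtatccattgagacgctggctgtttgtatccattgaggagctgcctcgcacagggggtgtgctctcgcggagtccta
Dusp1: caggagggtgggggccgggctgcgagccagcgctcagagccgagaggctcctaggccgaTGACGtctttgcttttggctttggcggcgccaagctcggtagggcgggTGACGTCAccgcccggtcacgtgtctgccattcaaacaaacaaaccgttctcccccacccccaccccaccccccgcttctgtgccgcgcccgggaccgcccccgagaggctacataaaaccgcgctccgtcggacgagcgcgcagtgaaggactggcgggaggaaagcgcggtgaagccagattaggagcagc
Nr4a1: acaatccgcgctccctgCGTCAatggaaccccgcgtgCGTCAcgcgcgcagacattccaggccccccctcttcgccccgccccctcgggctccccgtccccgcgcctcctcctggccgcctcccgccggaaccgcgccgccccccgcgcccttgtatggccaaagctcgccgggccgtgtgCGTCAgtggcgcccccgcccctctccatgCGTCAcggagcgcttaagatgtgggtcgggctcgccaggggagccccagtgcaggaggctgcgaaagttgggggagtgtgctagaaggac
Nr4a3: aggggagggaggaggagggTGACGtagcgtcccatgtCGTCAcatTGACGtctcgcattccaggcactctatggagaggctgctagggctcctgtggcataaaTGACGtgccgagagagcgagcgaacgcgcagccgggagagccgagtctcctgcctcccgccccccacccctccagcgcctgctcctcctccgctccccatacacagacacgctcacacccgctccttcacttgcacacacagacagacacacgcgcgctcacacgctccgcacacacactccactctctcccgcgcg

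The full element TGACGTCA was found in 1.79% of all 32851 promoters of this length, and at 2 or more places in 0.0396%. *Dusp8* held it at 2 places, starting at positions -107 and -63 from the annotated start, and *Dusp1* at 1 place, starting at -143. The core TGACG was found in 20.8% of all promoters, at 3 or more places in 1.03% and at 4 or more in 0.231%. *Dusp8*, *Nr4a1*, *Nr4a2* and *Nr4a3* each held the core at 4 places, *Dusp1* at 3, and *Dusp2* and *Dusp5* at 1 each. *Nr4a3* held its 4 places between positions -231 and -147, and *Nr4a1* between -233 and -40. These letters were not in the windows of *Dusp6* and *Dusp10*. The serum response element known as the CArG box, in 1.63% of all promoters, was found at 2 adjoining places in *Dusp5*, starting at -82 and -72, and in none of the other 8 windows. The AP-1 element TGANTCA (7.81% of promoters), the Nr4a response element AAAGGTCA (1.51%) and the ETS element CCGGAAGT (3.89%) were searched on both strands and were not in any of the 9 windows. The letters TATAAA, in 13.6% of promoters on either strand, were found in *Nr4a2* at 1 place, from -164 to -159 and on the strand opposite to the gene.

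*Dusp10* encodes a phosphatase (MKP5) that acts on JNK and p38, and its gene lies at chr1:184013302-184075636 (plus strand) in the GENCODE annotation of GRCm38. Its normalised counts were 589, 602, 594, 616 and 416 in young replicates 1 to 5 and 251, 256, 195, 285 and 269 in old replicates 1 to 5. All 5 old aortae were below all 5 young aortae, young replicate 5 was the lowest young aorta by a wide margin, and old replicate 3 was the lowest of all. *Dusp10* fell from 563 ± 83 to 251 ± 34.3 normalised counts (SD, n = 5), a log2 fold change of -1.16 (SE 0.12, 95% interval -1.42 to -0.89, edgeR Benjamini-Hochberg adjusted p = 9.77e-05). It was at place 11 by p among the 729 genes called lower. The call held in every alternative, with an adjusted p of 6.33e-16 to 0.000871 over 18 of them.

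*Dusp8* encodes a phosphatase of the same JNK and p38 class (chr7:142079490-142095843 (minus strand)). Normalised counts of *Dusp8* were 2259, 2530, 3445, 3151 and 2097 in young replicates 1 to 5 and 1306, 1199, 710, 1697 and 1804 in old replicates 1 to 5. The highest old aorta, replicate 5, was below the lowest young aorta, which was also a replicate 5, and old replicate 3 was again the lowest of all. *Dusp8* fell from 2696 ± 580 to 1343 ± 436 normalised counts (SD, n = 5), a log2 fold change of -0.999 (SE 0.24, 95% interval -1.54 to -0.46, edgeR adjusted p = 0.0271). The call was lost when no filter on low counts was used (adjusted p = 0.0747) and with the replicate number as a block (adjusted p = 0.112). It was also lost without young replicate 2 (0.0504), 3 (0.0504) or 4 (0.0675) and without old replicate 1 (0.0552) or 2 (0.0601, all adjusted p of edgeR), with log2 fold changes of -1.13 to -0.84 over the 10 omissions. The adjusted p ranged from 0.00237 to 0.112 over 18 alternatives. *Dusp16*, the remaining phosphatase of this class, had 853 ± 178 normalised counts in young and 663 ± 71.4 in old aortae and did not pass the threshold (log2 fold change -0.36, SE 0.13, edgeR adjusted p = 0.112). It passed without young replicate 1 (adjusted p = 0.0143, range 0.0143 to 0.238 over 18 alternatives).

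*Dusp6* encodes a cytoplasmic phosphatase (MKP3) that acts on ERK and is a standard readout of ERK activity (chr10:99263231-99267489 (plus strand)). The young aortae, replicates 1 to 5, had 479, 406, 464, 408 and 482 normalised counts and the old ones 590, 798, 574, 502 and 507. All old aortae were above all young ones, old replicates 4 and 5 only slightly, and old replicate 2, the library with the high mitochondrial share, was far above the rest. *Dusp6* rose from 448 ± 37.8 to 594 ± 120 normalised counts (SD, n = 5), a log2 fold change of 0.42 (SE 0.12, 95% interval 0.16 to 0.67, edgeR adjusted p = 0.0402). Without old replicate 2 the log2 fold change was 0.28 and the call was lost (adjusted p = 0.0512). It was also lost without young replicate 2 (0.102), 3 (0.0636), 4 (0.100) or 5 (0.0641) and without old replicate 1 (0.0718) or 3 (0.0706, all adjusted p of edgeR). With the replicate number as a block, *Dusp6* was not called either (log2 fold change 0.40, edgeR adjusted p = 0.0790). The adjusted p ranged from 0.0175 to 0.102 over 18 alternatives. *Dusp7*, its closest relative among the ERK phosphatases, rose from 657 ± 54.9 to 844 ± 104 normalised counts (log2 fold change 0.37, SE 0.09, edgeR adjusted p = 0.0169). *Dusp7* and *Dusp16* were the 2 tested MAP kinase phosphatases outside the 10 genes, and 1 of the 2 rose. *Dusp9* of the same list was near the lower limit of this depth and was left out by the filter. Its raw counts summed to 3 over the young and 24 over the old aortae (exact two-sided permutation on normalised counts, p = 0.0159). The groups of *Dusp7* overlapped, since old replicate 2 had 685 normalised counts and young replicate 4 had 708.

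*Dusp1* encodes the nuclear phosphatase MKP1, which acts on JNK, p38 and ERK and is an immediate early gene (chr17:26505590-26562128 (minus strand)). Its normalised counts were 6971, 5033, 6351, 6988 and 6863 in young replicates 1 to 5 and 6569, 6524, 2776, 5400 and 5714 in old replicates 1 to 5. The groups overlapped, with 4 young aortae with at least 6351 normalised counts, and old replicate 3 stood far below the others. The log2 fold change was -0.25 (SE 0.20, 95% interval -0.70 to 0.21) and did not pass the threshold (edgeR adjusted p = 0.492). Without old replicate 3 it was -0.08.

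*Dusp4*, *Dusp5* and *Dusp2* encode nuclear phosphatases that are likewise induced by MAP kinase signals, *Dusp5* being selective for ERK. *Dusp4* ranged from 14.1 to 74.6 normalised counts in young and from 35 to 68 in old aortae, with the highest young value in replicate 1. Its log2 fold change was 0.70 (SE 0.43, 95% interval -0.25 to 1.64, edgeR adjusted p = 0.339). When young replicate 1 was left out, every old aorta was above every young one and the log2 fold change was 1.31 (adjusted p = 0.0143, range 0.0143 to 0.539 over 18 alternatives). *Dusp5* ranged from 67.6 to 135 normalised counts in young and from 65.1 to 104 in old aortae, again with the highest value in young replicate 1. Its log2 fold change was -0.03 (SE 0.20, edgeR adjusted p = 0.945), with a 95% interval of -0.46 to 0.40. It turned above 0 without young replicate 1 or old replicate 5. An antisense gene overlaps 22.1% of the exonic bases of *Dusp5*, and as the strand setting of the counting is not given, part of these counts may belong to that gene.

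*Dusp2* was near the lower limit of this depth. Its raw counts summed to 66 over the 5 young and 39 over the 5 old aortae. Its normalised counts were 33.7, 4.03, 15, 5.79 and 8.20 in young replicates 1 to 5 and 4.00, 15.3, 11.2, 3.86 and 4.86 in old replicates 1 to 5. The groups overlapped widely, and young replicate 1 was above all others. The ratio of the old to the young mean was 0.587 (exact two-sided permutation, p = 0.452, n = 5 per group). No difference was detectable at this depth. The ratio without young replicate 1 was 0.95.

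*Nr4a3* encodes NOR1, the receptor of the family that does not pair with retinoid X receptors (chr4:48045153-48086447 (plus strand)). Normalised counts of *Nr4a3* were 453, 1085, 586, 1096 and 801 in young replicates 1 to 5 and 566, 546, 344, 396 and 442 in old replicates 1 to 5. The old aortae lay close together and below 4 of the 5 young ones, whereas young replicate 1 was within their range and below old replicates 1 and 2. The young mean was 804 ± 289 and the old mean 459 ± 95.4 normalised counts (SD, n = 5). The log2 fold change of -0.80 (SE 0.25, 95% interval -1.37 to -0.24) did not pass the threshold in edgeR (adjusted p = 0.0687). It passed with DESeq2 (log2 fold change -0.81, adjusted p = 0.00430) and in edgeR without young replicate 1 (log2 fold change -0.95, adjusted p = 0.0154), with a range of 0.00430 to 0.173 over 18 alternatives.

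*Nr4a1* encodes Nur77, the receptor with the highest level of the family (chr15:101254269-101274795 (plus strand)). The counts per mouse, normalised, were 6898, 2056, 4385, 3121 and 2376 in young replicates 1 to 5 and 2520, 4457, 1088, 2667 and 2220 in old replicates 1 to 5. The groups overlapped over most of their range, with young replicate 1 the highest and old replicate 3 the lowest of the 10 mice. The log2 fold change was -0.53 with a wide 95% interval of -1.48 to 0.41 (SE 0.42, edgeR adjusted p = 0.472). It was -0.20 without young replicate 1 and -0.83 without old replicate 2, and was not called in either. *Nr4a2*, which encodes Nurr1, ranged from 213 to 309 normalised counts in young and from 160 to 361 in old aortae. The range of the old aortae held that of the young ones whole, with old replicate 2 the highest of all. The log2 fold change of *Nr4a2* was -0.07 (SE 0.20, 95% interval -0.51 to 0.37, edgeR adjusted p = 0.868). It turned above 0 without young replicate 1 and without old replicate 1 or 3.

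The spread between mice of a group differed widely between the genes. In young aortae the SD was 8.45% of the mean in *Dusp6*, 12.9% in *Dusp1*, 14.7% in *Dusp10* and 16.3% in *Nr4a2*. It was 52.2% in *Nr4a1*, 82.4% in *Dusp4* and 90.9% in *Dusp2*, the 3 genes in which young replicate 1 stood far above the other young aortae. In old aortae the SD was 13.6% of the mean in *Dusp10* and 32.5% in *Dusp8*. The spread among old aortae was widest in *Dusp2* (65.6%), and *Nr4a1* came next (46.8%), between 1088 normalised counts in replicate 3 and 4457 in replicate 2. Young replicate 2 was the lowest young aorta in *Dusp1*, *Dusp2*, *Dusp4*, *Dusp6* and *Nr4a1*, while old replicate 2 was the highest old aorta in *Dusp2*, *Dusp6*, *Nr4a1* and *Nr4a2*. *Nr4a3* ran the other way in young replicate 1, which had its lowest young value, and in young replicate 2, which had one of its highest.

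The 10 genes lie apart on 9 chromosomes. *Dusp2* (chr2:127336159-127338376 (plus strand)) and *Nr4a2* (chr2:57106830-57124003 (minus strand)) share a chromosome. *Dusp4* lies at chr8:34807297-34819894 (plus strand) and *Dusp5* at chr19:53529109-53542431 (plus strand). Besides *Dusp5*, the exons of *Dusp8* (1.36% of bases) and *Dusp1* (0.332%) are overlapped by another gene on the opposite strand. Sequence windows of 50 bases shared with transcripts of other genes made up 20.5% of the windows of *Dusp5*, 0.581% of *Dusp8* and 0.15% of *Nr4a3*, and none of those of the other 7 genes. The reads were not used here, so that the effect of the overlaps on the counts was not measured.

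Genes that work with the phosphatases were read from the same test, by lists of known function. Of 11 tested inhibitors and transcriptional outputs of ERK signalling, 5 rose and none fell in edgeR (0 lower at an unadjusted p below 0.05, and 0 with DESeq2 or limma-voom), with a median log2 fold change of 0.35 against 0.00 over all tested genes. The ETS factor genes *Etv4*, *Etv5* and *Etv1*, transcribed on ERK activity as *Dusp6* is, were among them. *Etv4* had 16.4, 21.1, 14, 13.5 and 16.4 normalised counts in young replicates 1 to 5 and 63, 81.7, 126, 61.7 and 82.6 in old replicates 1 to 5. Every old aorta was at least as high as 61.7, and no young one was above 21.1. *Etv4* rose by a log2 fold change of 2.35 (SE 0.24, edgeR adjusted p = 8.20e-05). *Etv5* rose from 258 ± 50.8 to 555 ± 77.6 normalised counts (log2 fold change 1.11, SE 0.13, edgeR adjusted p = 0.000241) and *Etv1* from 260 ± 42.1 to 431 ± 52.2 (log2 fold change 0.73, SE 0.12, adjusted p = 0.00167). The Sprouty-related inhibitors *Spred3* and *Spred1* rose by log2 fold changes of 0.72 (SE 0.16, adjusted p = 0.0104) and 0.36 (SE 0.09, adjusted p = 0.0174). All old aortae were above all young ones in each of these 5 genes, as in *Dusp6*. *Spred1* missed the threshold without young replicate 4 (adjusted p = 0.0510, range 0.00414 to 0.0510 over 18 alternatives).

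Of the MAP kinases themselves, 2 of 9 tested rose and none fell (2 lower at an unadjusted p below 0.05 in edgeR, and 0 with DESeq2 or limma-voom), and both encode p38 kinases. *Mapk12* rose from 285 ± 45.4 to 487 ± 93.2 normalised counts (log2 fold change 0.78, SE 0.13, edgeR adjusted p = 0.00282) and *Mapk11* from 57.8 ± 12.2 to 90.4 ± 17.3 (log2 fold change 0.65, SE 0.19, adjusted p = 0.0403). All old aortae were above all young ones in both, while the p38 and JNK phosphatase genes *Dusp10* and *Dusp8* showed the opposite order. The call of *Mapk11* was lost without young replicate 1 (0.0529), 2 (0.0554), 4 (0.0641) or 5 (0.0869) and without old replicate 1 (0.0656), 2 (0.0771) or 3 (0.0926, all adjusted p of edgeR, range 0.0133 to 0.0926 over 18 alternatives). None of the 10 tested kinases that act upstream of the MAP kinases passed the threshold in edgeR, where 3 had an unadjusted p below 0.05 (2 higher, 1 lower), and DESeq2 called 1 and limma-voom 0.

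Among other phosphatases that act on MAP kinases, 1 of 7 tested genes fell and none rose (1 higher at an unadjusted p below 0.05 in edgeR, and 0 with DESeq2 or limma-voom). The tyrosine phosphatase gene *Ptprr* fell from 80.4 ± 15.1 to 43.4 ± 14.8 normalised counts, with no overlap of the groups (log2 fold change -0.88, SE 0.23, edgeR adjusted p = 0.0268). Its call was lost without young replicate 4 (0.0780) or old replicate 1 (0.0615, adjusted p, range 0.00355 to 0.0780 over 18 alternatives). The most abundant gene of this list, *Ppp2ca*, had a log2 fold change of -0.20 (SE 0.07, adjusted p = 0.0865). It passed the threshold with DESeq2 (adjusted p = 0.0459) and in edgeR without young replicate 1 (0.0239, range 0.0239 to 0.190 over 18 alternatives). None of 10 tested atypical dual specificity phosphatase genes, which lack the MAP kinase binding domain of the members, passed the threshold in edgeR, where 1 had an unadjusted p below 0.05, or in DESeq2 or limma-voom. *Dusp3*, the most abundant of them, had 5843 ± 630 normalised counts in young and 6217 ± 471 in old aortae (log2 fold change 0.10, adjusted p = 0.491). The 6 tested inducible Dusp genes gave 2 lower and 1 higher, and the difference between the lists was not tested.

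Nr4a genes are themselves immediate early genes, and 19 other genes of this class were tested. Of these, 6 fell and 1 rose, with a median log2 fold change of -0.15 against 0.00 over all tested genes. The calls were 36.8% of the list, against 11.5% of all tested genes. At an unadjusted p below 0.05 in edgeR, 8 were lower and 4 higher. *Atf3*, a stress-induced transcription factor, fell by 2.28 on the log2 scale (SE 0.39, edgeR adjusted p = 0.00596), and *Jund*, *Ier5*, *Npas4* and *Fosl2* fell by 0.45, 0.98, 0.84 and 0.71 (adjusted p = 0.00723, 0.0133, 0.0309 and 0.0309). *Junb*, an AP-1 subunit, was the gene that rose, from 1181 ± 260 to 2009 ± 370 normalised counts (log2 fold change 0.77, SE 0.16, edgeR adjusted p = 0.00957). Old replicate 2 was the highest old aorta in *Junb* with 2668 normalised counts, as it was in *Nr4a1*, *Nr4a2* and *Dusp6*. The calls of *Fosl2* and *Npas4* were each lost without a filter on low counts (adjusted p = 0.101 and 0.102) and on some omissions. For *Fosl2* these were young replicates 3 (0.0548) and 4 (0.0732) and old replicates 1 (0.0633) and 2 (0.0565), as adjusted p in a range of 0.000598 to 0.120 over 18 alternatives. For *Npas4* they were young replicates 2 (0.0703) and 4 (0.0635) and old replicates 2 (0.0622) and 4 (0.0550), as adjusted p in a range of 0.000676 to 0.102. With DESeq2 the list gave 8 lower and 3 higher, and without young replicate 4 edgeR gave 3 lower. Genes called higher were 3 without young replicate 1, and 2 without young replicate 3 or old replicate 2.

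The retinoid X receptor genes, whose products pair with Nr4a1 and Nr4a2, gave no call among 3 tested in edgeR (0 at an unadjusted p below 0.05) or in DESeq2 or limma-voom. *Rxra*, the most abundant, had 2493 ± 227 normalised counts in young and 2443 ± 103 in old aortae (log2 fold change -0.02, edgeR adjusted p = 0.876), and its small difference changed sign when scaled by upper quartiles or by library size alone, and without young replicate 1. Of 12 tested genes of the cAMP and CREB pathway, which acts through the element TGACGTCA, 1 rose and 1 fell. These calls were 16.7% of the list, against 11.5% of all tested genes, and both genes encode enzymes that break down cAMP. *Pde4a* rose from 764 ± 91.7 to 1132 ± 110 normalised counts (log2 fold change 0.57, SE 0.09, edgeR adjusted p = 0.00126) and *Pde4d* fell from 469 ± 32.3 to 339 ± 39.1 (log2 fold change -0.46, SE 0.09, adjusted p = 0.00553). The groups did not overlap in either gene. *Pde4b*, which encodes an enzyme of the same family, was the more abundant and did not differ past the threshold. It had 1153 ± 210 normalised counts in young and 1149 ± 257 in old aortae (log2 fold change 0.003, edgeR adjusted p = 0.994). The CREB coactivator gene *Crtc3*, the most abundant of the list, had a log2 fold change of -0.13 (SE 0.07, adjusted p = 0.248). Omission of young replicate 1 gave 2 genes of this list called lower.

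**Figure D3:**
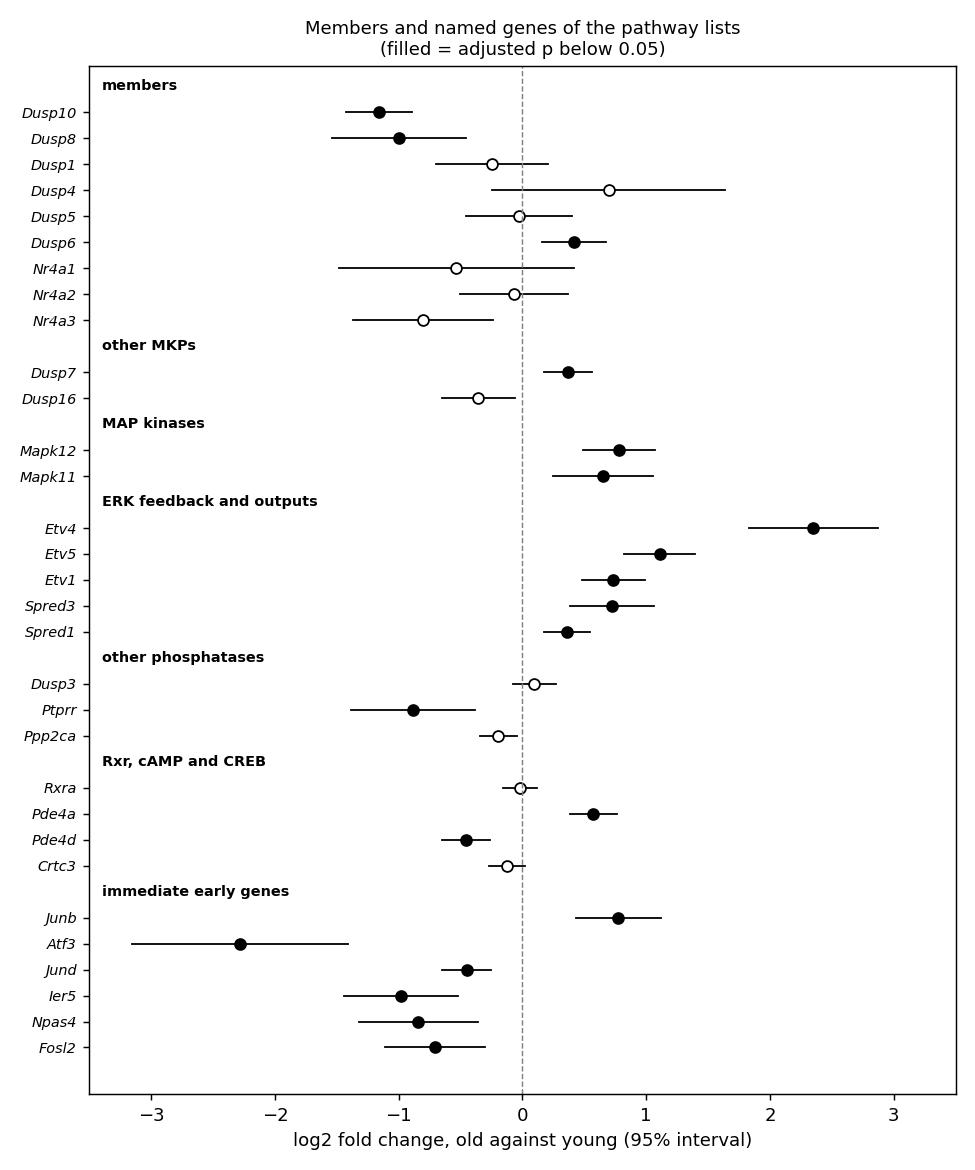
Log2 fold change of old against young aortae (horizontal axis) with its 95% interval for the 9 tested members and the named genes of the pathway lists, from edgeR on 5 mice per group. Filled points have an adjusted p below 0.05 over all tested genes. *Dusp10* and *Dusp8* lie near -1, and *Etv4* and *Etv5* lie to the right of *Dusp6*.

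To see whether mice high in one gene were high in another, the group means were removed from log2(normalised count + 1) and the 36 pairs of the 9 tested genes were correlated over the 10 mice. None of the 36 pairs passed an adjusted p of 0.05 by Pearson's r or by Spearman's rho. For Pearson's r, 3 had an unadjusted exact permutation p below 0.05. With variance stabilized values from DESeq2 none passed and 4 had such an unadjusted p. For *Dusp8* and *Dusp10*, Pearson's r was 0.79 (exact permutation p = 0.00285, adjusted p = 0.102) and Spearman's rho was 0.81 (exact permutation p = 0.0119, adjusted p = 0.322), over 10 mice. Without young replicate 3 and old replicate 3, the mice farthest from the median of *Dusp8*, r was 0.62. For *Nr4a1* and *Nr4a2*, Pearson's r was 0.77 (exact permutation p = 0.0139, adjusted p = 0.250) and Spearman's rho was 0.73 (exact permutation p = 0.0185, adjusted p = 0.322), over 10 mice. Without young replicate 1 and old replicate 3, r was 0.57. For *Dusp1* and *Nr4a1*, Pearson's r was 0.73 (exact permutation p = 0.0231, adjusted p = 0.278) and Spearman's rho was 0.47 (exact permutation p = 0.163, adjusted p = 0.891), over 10 mice. This value rested on young replicate 2 and old replicate 3, since r was 0.23 without them. *Dusp6* and *Dusp10* ran opposite ways by rank, with Spearman's rho of -0.73 (exact permutation p = 0.0268, adjusted p = 0.322). Their Pearson's r was -0.28 (exact permutation p = 0.437, adjusted p = 0.773), and -0.61 without young replicate 2 and old replicate 2. *Nr4a3* had negative coefficients to the other receptors, with r of -0.27 to *Nr4a1* and -0.13 to *Nr4a2* (Spearman's rho -0.32 and -0.27, exact permutation p = 0.481 and 0.661 for r and 0.415 and 0.420 for rho). The value to *Nr4a2* depended on old replicates 2 and 3, since r was -0.80 without them, and the value to *Nr4a1* was -0.29 without young replicate 1 and old replicate 3.

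**Figure D4:**
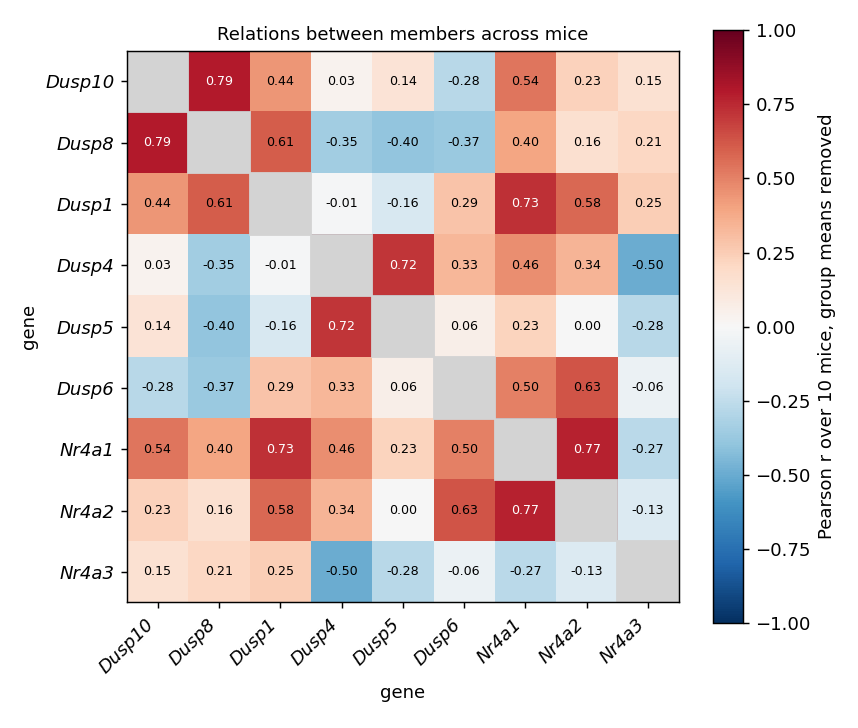
Pearson's r (colour and number) between the 9 tested genes over 10 mice, after removal of the group means from log2(normalised count + 1). *Dusp8* with *Dusp10* (0.79) and *Nr4a1* with *Nr4a2* (0.77) have the highest values, and no pair passed the adjusted threshold.

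The same measure was used to find the 3 genes most alike a member over the 10 mice, among the genes with a mean of at least 50 normalised counts, 12154 for each of 8 members, and is given without a p as a description. *Dusp4* and *Dusp2* had lower means than this and were left out. *Dusp8* was most alike *Fosl2* (r = 0.96), *Jmjd6* (r = 0.94) and *Hspa1l* (r = 0.94), of which *Fosl2* also fell in old aortae. *Hspa1l*, a heat shock protein gene, fell as well (log2 fold change -1.47, edgeR adjusted p = 1.37e-05). *Nr4a1* was most alike *Cldn5* (r = 0.97), *Sncaip* (r = 0.97) and *Fos* (r = 0.97), of which *Cldn5* encodes a tight junction protein of endothelial cells and *Fos* an AP-1 subunit. *Sncaip* fell in old aortae (log2 fold change -0.56, edgeR adjusted p = 0.0182), and the other 2 did not pass the threshold. *Dusp10* was most alike *Pogz* (r = 0.97), *Dpm1* (r = 0.91) and *Ppp4r1l-ps* (r = 0.90). None of these 3 genes differed between the groups past the threshold. For *Dusp6* the genes were *BC003965* (r = 0.93), *Polr3gl* (r = 0.93) and *L3mbtl2* (r = 0.92), and for *Dusp1* they were *Snx27* (r = 0.96), *Diablo* (r = 0.95) and *Vipr1* (r = 0.95). *Nr4a3* was most alike *Mertk* (r = 0.99), *Aff1* (r = 0.97) and *Rapgef2* (r = 0.97), and *Nr4a2* was most alike *Chd2* (r = 0.96), *Cgnl1* (r = 0.95) and *Srpk2* (r = 0.92). For *Dusp5* they were *Apol6* (r = 0.94), *Ttyh2* (r = 0.94) and *Glrx5* (r = 0.93). Of the genes named for these 5 members, *Vipr1* (log2 fold change -0.92, edgeR adjusted p = 0.0107) and *Rapgef2* (log2 fold change -0.38, adjusted p = 0.0181) fell, and the others did not pass the threshold.

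Levels of cell type markers are given beside these results, as summed normalised counts of each list. They were compared by exact two-sided permutation, in which the smallest p for 5 against 5 mice (0.00794) becomes an adjusted p of 0.0794 for a single list of the 10, so that no list could pass a threshold of 0.05 alone. Unadjusted, 5 of the 10 lists had a p below 0.05. The 6 endothelial markers summed to 24409 ± 5896 in the young and 14411 ± 5002 in the old group (mean ± SD over 5 mice), a ratio of 0.590 (exact permutation p = 0.0317, adjusted p = 0.0794), and *Pecam1* was the most abundant. As single genes, 1 of the 6 was called lower in edgeR, 4 in DESeq2 and 2 in limma-voom. The sums of the list were 27341, 19345, 33413, 20711 and 21235 in young replicates 1 to 5 and 12903, 22319, 9725, 15985 and 11121 in old replicates 1 to 5. Young replicates 1 and 3 and old replicate 2 were the highest of their groups, as they were in *Nr4a1*, and old replicate 3 was the lowest of all in both. The 6 macrophage markers, led by *Lyz2*, summed to 7554 ± 685 in the young and 11127 ± 3463 in the old group, with all old aortae above all young ones (ratio 1.47, exact permutation p = 0.00794, adjusted p = 0.0794). Of the 6 genes, 2 were called higher in edgeR, 6 in DESeq2 and 2 in limma-voom. Old replicate 3, the lowest old aorta in *Dusp10* and *Dusp8*, had the highest sum with 17113. The 6 T cell markers, led by *Cd4*, summed to 61.3, 13.1, 33.9, 21.2 and 14.3 in young and 44, 108, 178, 81.9 and 86.5 in old replicates 1 to 5 (ratio 3.46, exact permutation p = 0.0159, adjusted p = 0.0794). The groups overlapped in old replicate 1 and young replicate 1, and of the 3 genes tested in edgeR 2 were called higher. Without old replicate 1, the macrophage and T cell lists passed (adjusted p = 0.0397 for each), and without old replicate 2 the macrophage and endothelial lists did (0.0397 for each).

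The 6 fibroblast markers summed to 130254 ± 7604 in the young and 110267 ± 13166 in the old group (exact permutation p = 0.0238, adjusted p = 0.0794, n = 5), but the single genes went both ways, with 2 called lower and 1 called higher in edgeR and a median log2 fold change of 0.03. *Dcn*, the most abundant of them over all 10 mice, was higher in old aortae, against the direction of the sum, and did not pass the threshold (log2 fold change 0.27, SE 0.09, edgeR adjusted p = 0.0634). The 6 smooth muscle markers summed to 885633 ± 63162 in the young and 839718 ± 61917 in the old group (exact permutation p = 0.278, adjusted p = 0.463), led by *Acta2*, with 1 of the 6 genes called higher and none lower in edgeR. Their ratio of 0.948 stands beside ratios of 0.446 for *Dusp10* and 0.498 for *Dusp8*. The 6 adipocyte markers, led by *Cfd*, summed to 24188, 7429, 7134, 12315 and 6266 in young and 2855, 8806, 5152, 4193 and 4011 in old replicates 1 to 5 (exact permutation p = 0.0476, adjusted p = 0.0952). Without young replicate 1, the library with the high adipocyte sum, the log2 fold change was -1.14 for *Dusp10* and -1.06 for *Dusp8*, each still called (adjusted p = 0.000245 and 0.0317). B cell markers, led by *Cd22*, and Schwann cell markers, led by *Mbp*, had ratios of 2.64 and 1.17 (adjusted p = 0.476 and 0.476, exact permutation). The B cell ratio rested on old replicate 3, with a sum of 507 against at most 104 in the other old aortae, and was 1.17 without it. Markers of skeletal and cardiac muscle, led by *Tnnt2*, and of red blood cells, led by *Hbb-bs*, had ratios of 1.30 and 0.998 (adjusted p = 0.476 and 1, exact permutation). The muscle ratio rested on *Tnnt2*, which rose from 241 ± 72.3 to 798 ± 431 normalised counts (log2 fold change 1.74, SE 0.35, edgeR adjusted p = 0.0116), while the means of the other 5 genes of that list were lower in old aortae and the median log2 fold change of its 5 tested genes was -0.94. In each of the 10 lists every gene had at least 1 count. The part of these marker levels in the differences of the Dusp and Nr4a genes was not tested.

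**Figure D5:**
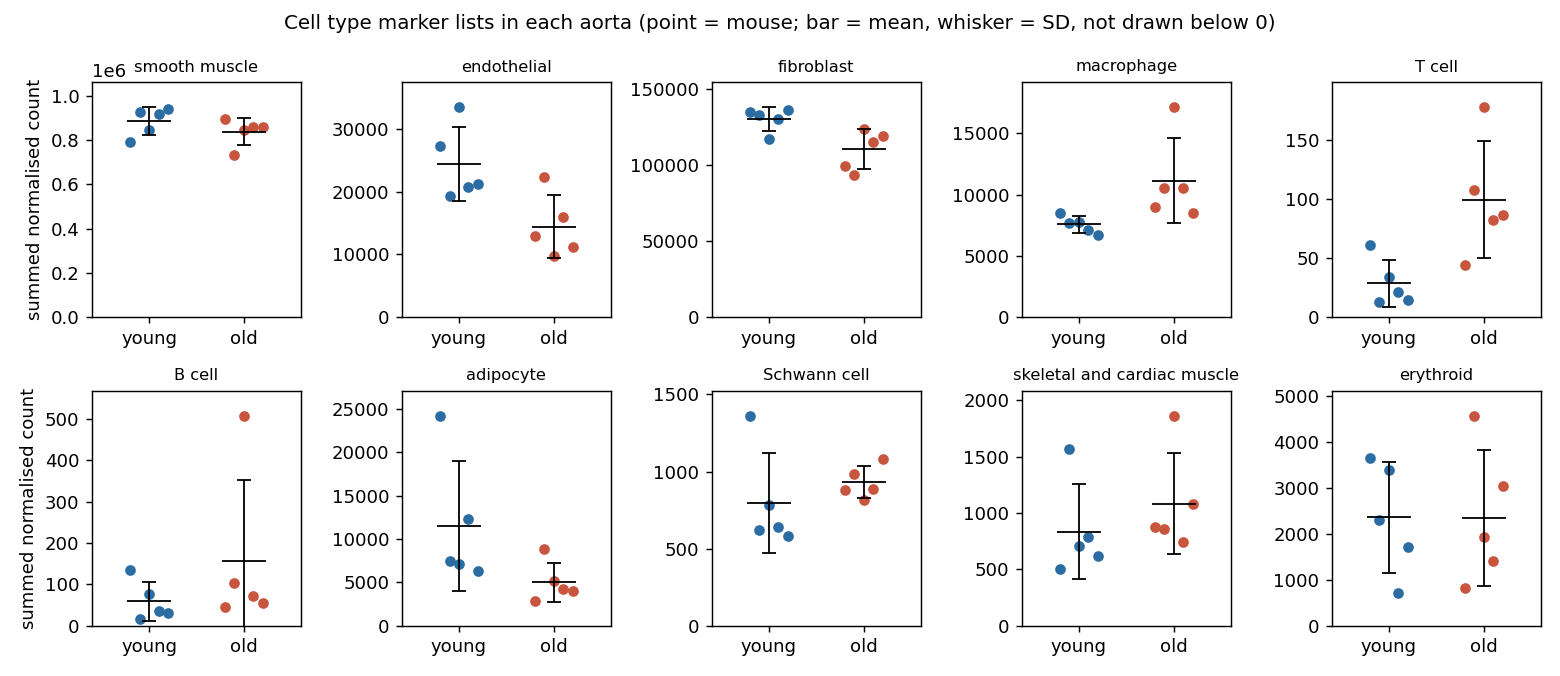
Summed normalised count (vertical axis, starting at 0) of 10 lists of cell type markers in 5 young and 5 old aortae. Points are mice, bars are group means and whiskers SD. Macrophage sums are higher in all old than in all young aortae, and the groups overlap in the other 9 lists.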

How the data were processed

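Poly(A) RNA libraries from 10 aortae were prepared with a stranded kit and sequenced. The authors trimmed and filtered the reads with fastp 0.20.0, aligned them with STAR 2.7.0f to GRCm38 and counted them per gene with featureCounts of Subread 1.6.4, and the deposited values are raw counts. The strand setting and the treatment of reads with several alignments are not given in the sources used here. Old and young aortae were compared over the whole table with edgeR 4.0.16 in R 4.3.3 (filterByExpr defaults, TMM scaling, robust quasi-likelihood F test, no covariates), with Benjamini-Hochberg adjustment and a threshold of 0.05. The SE is the size of the log2 fold change divided by the square root of F. Normalised counts use DESeq2 1.42.0 size factors. Values outside the low-count filter and marker sums were tested by exact two-sided permutation over all assignments of the mice, and correlations by exact permutation within groups (14400 rearrangements). Counts of 2 libraries of 1 group differed 8.06 to 58.8 times more than counting error gives (chi-square over degrees of freedom, 20 pairs).

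The 10 genes and the lists were chosen with earlier results of these data known. Named genes are the members, the called genes of each pathway list (at most 5 per direction by p) with its most abundant gene (in some lists not reported here), the 3 genes most alike each of 8 members, and the most abundant gene of each marker list. The 9 pathway lists hold 93 genes. Exonic lengths and overlaps come from the GENCODE annotation of GRCm38 in a release next to the authors' own. Alternatives were DESeq2, limma-voom 3.58.1, other scaling factors, other filters, the replicate number as a block, a stricter threshold (0.01) and leaving out each mouse. The fits were tested on simulated counts, and the outcome is not given here.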

Additional observations from a re-analysis of the deposited data

Results flagged for a closer look

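In some groups of 5 mice, the gap of 1 mouse to its nearest neighbour took up more of the group's range than chance gives in about 1 of 20 groups (Dixon's test). Among the 10 Dusp and Nr4a genes, this held in 1 of 20 groups. *Dusp10* in young replicate 5 had 416 normalised counts, with the next young aorta at 589. Among the other pathway genes looked at in this way it held in 3 of 48 groups. *Mapk12* in young replicate 1 had 364 normalised counts (next 278), *Pde4d* in old replicate 1 had 271 (next 349) and *Junb* in old replicate 2 had 2668 (next 1876). Among marker sums, total counts and mitochondrial shares it held in 5 of 24 groups. Old replicate 3 had summed normalised counts of 17113 for macrophage markers (next 10502) and 507 for B cell markers (next 104). Young replicate 1 had 1359 for Schwann cell markers (next 784), and young replicate 2 had 1567 for skeletal and cardiac muscle markers (next 787). In old replicate 2, 11% of the counts fell on mitochondrial genes (next 6.51%). Without young replicate 5, the log2 fold change of *Dusp10* was -1.25.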

How the results depend on the processing

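The number of genes called was between 1132 and 2367 when a mouse was left out, and 658 at a threshold of 0.01, against 1676. *Dusp10* kept its direction and call in all 18 alternatives with its own value. *Dusp1* and *Nr4a1* kept their direction and stayed above the threshold in all 18. Of the 10 genes, 1 was called lower without a low-count filter, in the replicate block and at 0.01, where 0 were called higher except without the filter. When a mouse was left out, 1 to 3 were called lower and 0 to 2 higher. The log2 fold change was then 0.28 to 0.47 for *Dusp6*, -1.13 to -0.84 for *Dusp8*, 0.51 to 1.31 for *Dusp4*, -0.95 to -0.67 for *Nr4a3*, -0.13 to 0.15 for *Dusp5*, -0.33 to -0.08 for *Dusp1*, -0.83 to -0.20 for *Nr4a1*, 0.03 to 0.14 for *Dusp3*, -0.16 to -0.08 for *Crtc3* and -0.28 to 0.0406 for *Nr4a2*, where *Dusp5* and *Nr4a2* changed sign. *Dusp8* was at -1.001 and uncalled without the filter, and *Nr4a3* at -0.81 and called with DESeq2. *Rxra* changed sign under upper-quartile scaling (0.0055), library size alone (0.0023) and omissions (-0.0537 to 0.0336). For MAP kinase phosphatases beside the 10 genes, 2 (*Dusp7* and the low-count *Dusp9*) were called higher with DESeq2 and without the filter and 0 at 0.01. At 0.01, 1 MAP kinase and 3 ERK feedback genes were higher, and 0 other phosphatases acting on MAP kinases and 2 immediate early genes lower. DESeq2 called 2 of those phosphatases lower. Immediate early genes called higher were 3 with DESeq2 and limma-voom and 2 with upper-quartile factors and library size alone, and 3 were called lower without the filter. Over omissions, 1 to 2 MAP kinases were higher, 0 to 3 of those phosphatases and 1 to 2 cAMP genes lower, and 1 to 3 immediate early genes higher and 3 to 6 lower. The ratio of marker sums ranged over omissions from 0.763 to 1.16 for erythroid markers, with a change of side, 0.509 to 0.650 for endothelial, 1.27 to 1.56 for macrophage, 2.78 to 4.83 for T cell and 1.17 to 3.86 for B cell markers. The ratio of *Dusp2* stayed below 1 and above the threshold in 11 of 11 alternatives. The cause of these differences was not tested.

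With the replicate number as a block (replicate block), 1261 genes were called, *Dusp6* was at 0.40 and *Dusp8* at -1.03, neither called, and 1 MAP kinase was called higher, and 3 immediate early genes higher and 2 lower. *Mapk11*, *Atf3*, *Npas4* and *Fosl2* were not called in it either (adjusted p = 0.0513, 0.0703, 0.0670 and 0.120), and no other call of a named pathway gene was lost. Deviations of same-numbered mice correlated at -0.29 to 0.13 over the 5 pairs and 2 of 5 young mice were closest to their own number. With 5 pairs, these values cannot decide whether same-numbered mice share more than a number. Depth limits *Dusp2*, with 39 counts in its lower group.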
